A study of Mus musculus with 6 samples.

Results

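The transcripts described here come from 50 genes that act in mitosis: Mki67, which encodes the proliferation marker Ki-67, and 49 genes of chromosome condensation, cyclin-dependent kinase control, the spindle checkpoint, the kinetochore, the spindle and cytokinesis. The members were fixed by name, and all 50 were found by their exact symbol among the 41549 genes of the deposited table. They were measured by messenger RNA sequencing of mouse bone marrow-derived macrophages (BMDMs), which are macrophages (Mφs) grown from marrow precursors with macrophage colony-stimulating factor. The cells were wild type and came, according to the methods of the study, from young adult C57Bl/6N mice. All of them were transfected with a locked nucleic acid antisense oligonucleotide and then driven to the M2 phenotype, which is anti-inflammatory, with the cytokines IL-4 and IL-13. In the αGlu group the oligonucleotide was directed against 5′tRF-Glu(CTC), which is cut from the 5′ part of a tRNA for glutamate, and in the Ctr group it was a control oligonucleotide. Each group had 3 libraries, numbered in the labels. The oligonucleotide blocks a fragment present in the cell and changes no gene. The study describes the libraries of a group as independent experiments, which for primary cells means preparations from different animals. Whether a Ctr and an αGlu library came from the same preparation is not given in the sources used here.

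The order of the αGlu antisense and of its listed target sequence is shown because this oligonucleotide defines the αGlu group. Ctr received the control oligonucleotide in its place, which is not shown, so the groups differ in both. The target sequence is a stretch of the fragment, which the study describes as longer. Capitals in the target sequence mark the 20 bases, from base 2 to base 21, that pair with the antisense. The positions of the locked bases are not marked.
αGlu antisense: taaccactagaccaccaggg
fragment targeted: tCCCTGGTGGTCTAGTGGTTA

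In mitosis, cyclin B with Cdk1 drives entry, condensins and topoisomerase II compact the chromosomes, and the kinetochore, built on centromeric chromatin, attaches each chromosome to spindle microtubules. The spindle checkpoint holds the anaphase-promoting complex (APC/C) inactive until all chromosomes are attached, and kinesins and regulators of the contractile ring then divide the cell. Transcripts of most of these genes peak in the G2 and M phases, and their promoters often hold a cell cycle homology region (CHR) and CCAAT boxes, through which the MuvB complex, with B-Myb and FoxM1, and the factor NF-Y act. In cultures of marrow-derived macrophages, colony-stimulating factor keeps a share of the cells in cycle, and most leave it as they mature.

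Total counts ranged from 17912831 to 30386653 per library, and 3811 reads or more fell on the 50 members in each library. Across all genes tested, αGlu 1 correlated with the Ctr libraries at a Pearson r of 0.966 to 0.982 and with αGlu 2 and αGlu 3 only at 0.929, while αGlu 2 and αGlu 3 correlated with each other at 0.992. The library labelled αGlu 1 therefore stands nearer to Ctr than to its own group, and the results of the members that move most without it are given both ways. All 8 pan-macrophage markers were above 1 CPM (counts scaled to a common library size) in the mean of the libraries, with sums of 11850 to 13400 CPM in Ctr and 12590 to 18780 CPM in αGlu. The M2 markers did not move together. Arg1 was at 24.3, 45.2 and 41.5 CPM in Ctr, against 23.5, 1886 and 1792 CPM in αGlu 1, 2 and 3, whereas Retnla was at 245.5 to 539.6 CPM in Ctr, at 101.3 in αGlu 1 and at 0.0315 and 0.0367 CPM in αGlu 2 and 3. Markers of other cells were low. The 8 neutrophil markers summed to 1.62 to 6.44 CPM in Ctr and 1.43 to 3.04 in αGlu, with Ly6g at 0 in every library. The 6 lymphocyte markers summed to at most 0.346 CPM, and the mast cell and dendritic cell markers to at most 2.98 and 1.05 CPM. The 6 fibroblast markers summed to 7.18 CPM in Ctr 1, to 1.63 and 2.00 CPM in Ctr 2 and 3, and to 1.01 to 2.87 CPM in αGlu.

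Apart from Mki67, the mitotic genes were lower in αGlu than in Ctr. Of the 49 members that passed the filter on low counts, 48 had a negative log2 fold change, αGlu over Ctr, and 1, Mki67, a positive one; when libraries were scaled by their size alone, Smc4 and Gtse1 crossed 0 and 46 were negative. The median over the 49 was a log2 fold change of -1.48, beside 0.016 over all 11933 genes tested, and 31 of the 49 lay below -1. Topoisomerase IIα, cyclin A2, Plk1, the spindle kinesins and most kinetochore genes were lower in all 3 αGlu libraries, including αGlu 1. Mki67 was above every Ctr library in αGlu 2 and αGlu 3 and below every one in αGlu 1.

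None of these differences passed the main test. By edgeR's quasi-likelihood test with Benjamini-Hochberg adjustment over all genes (a call needs an adjusted p under 0.1 with more than 2-fold change either way), 0 of the 49 members were called lower and 0 higher, against 0% of all genes in either direction, and the smallest adjusted p of a member was 0.149. At an unadjusted p under 0.05, 39 of the 49 members were lower, against 11.9% of all genes tested, and no member was higher. DESeq2 with the same thresholds called 30 of the 50 members lower, against 3.93% of all genes, and 0 higher, against 4.23%. An edgeR likelihood-ratio test called 29 lower, against 3.66%, and 0 higher, against 3.87%. limma-voom called 0 members lower, against 0% of all genes, with 40 of 49 members lower at an unadjusted p under 0.05, against 15% of all genes. Without αGlu 1, the quasi-likelihood test called 32 members lower, against 10.5% of all genes, and 1, Mki67, higher, against 8.05%. Without Ctr 1 it called 0 members and 0% of genes lower.

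The values of the single libraries did not depend on a model. In 40 of the 50 members the 3 αGlu CPM values all lay under the 3 Ctr values, and in no member did they all lie above; in the other 10 the groups overlapped. Among the 47 members with a mean CPM of at least 1 the count was 37, against 15.6% of the 11121 genes of the table at that level, of which a further 14.6% were higher in αGlu without overlap. These genes are not independent of each other. Whether fewer cells in mitosis or less RNA of these genes per cell underlies such a difference in bulk RNA cannot be told apart. The sum over 8 markers of marrow progenitors, which divide, was 4.05 to 6.50 CPM in Ctr and 1.61 to 3.44 in αGlu. These markers did not move together. Kit was at 1.62 to 3.09 CPM in Ctr and 0.404 to 1.15 CPM in αGlu. Myb was higher in αGlu, at 0.220 to 0.459 CPM, against 0.0928 to 0.209 CPM in Ctr. Cd34 overlapped, Gata2 was highest in αGlu 1, and Flt3, Prtn3, Ctsg and Ms4a3 were at most 0.251 CPM. The part of these markers in the result was not tested.

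**Figure D1:**
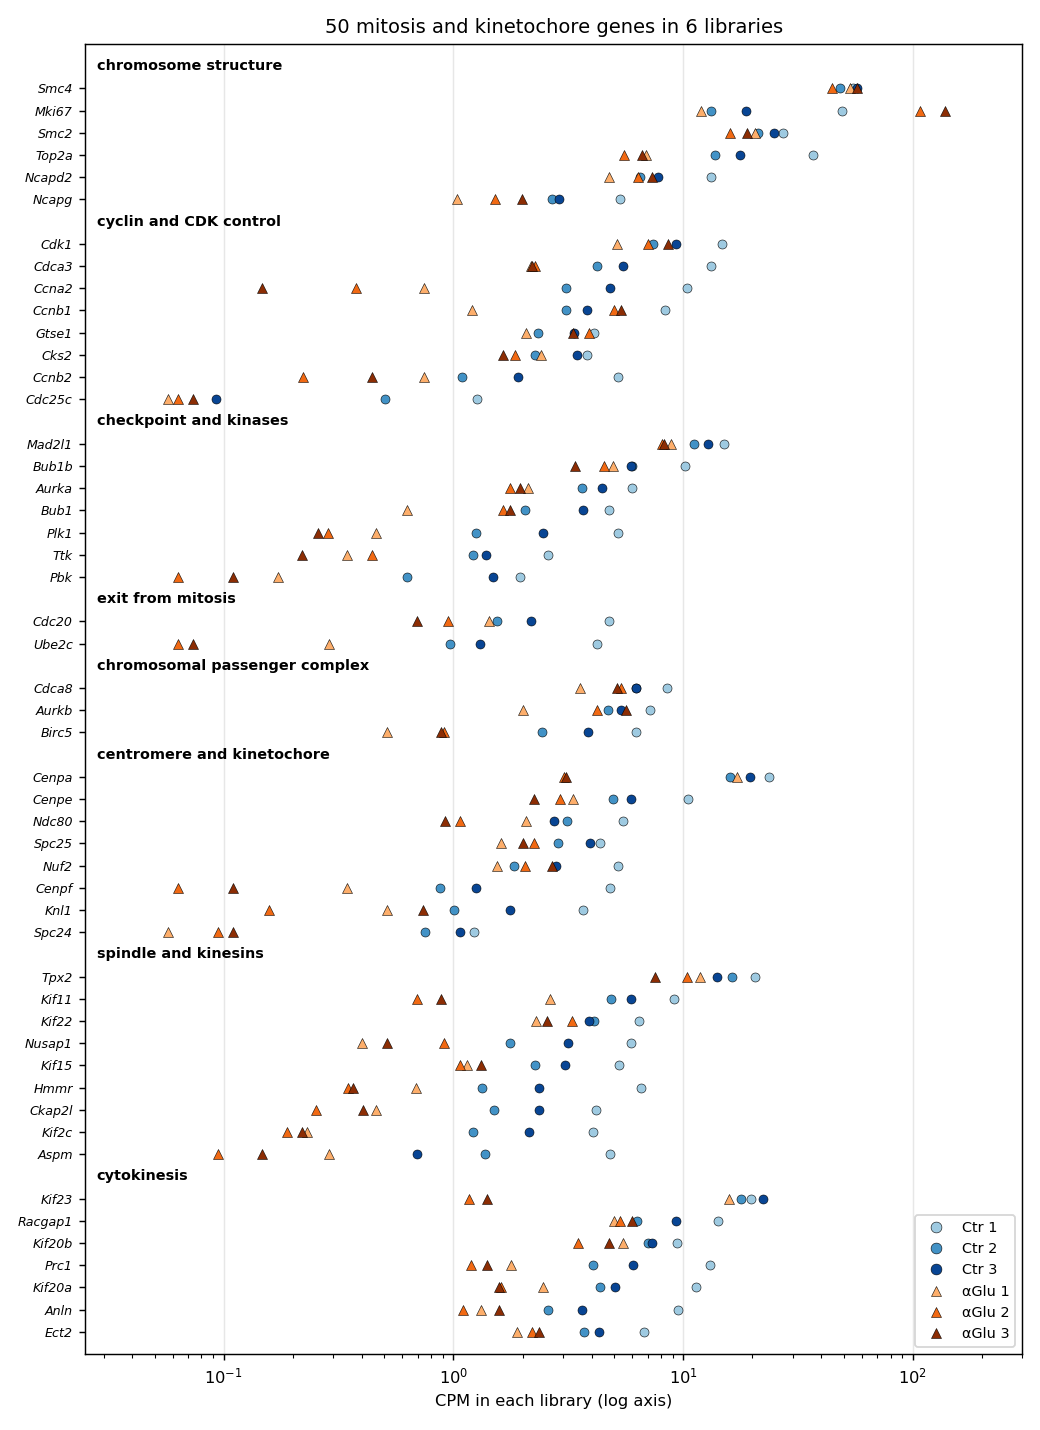
CPM of the 50 members in each of the 6 libraries on a log axis, grouped by role (circles, Ctr; triangles, αGlu). In 40 members the triangles lie wholly to the left of the circles, and for Mki67 those of αGlu 2 and 3 lie at 107.9 and 137.9 CPM, to the right of every circle.

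For 44 of the 50 members the SD of the CPM was larger among the Ctr libraries than among the αGlu libraries, and the main exceptions, Mki67, Kif23 and Cenpa, are described with their values further on. The SD of a CPM rises with its mean, which was higher in Ctr for all members but Mki67. This count is therefore no sign of a tighter αGlu group, and it was not made over all genes. Ctr 1 held the highest Ctr value for 48 of the 50 members, and for 45 of the 47 members with a mean CPM of at least 1, against 35.3% of genes at that level. Ctr 2 was the lowest Ctr library for 44 members. The value in Ctr 1 was 0.986 to 4.64 times the mean of Ctr 2 and 3, with a median of 1.92. The sum of the fibroblast markers was also highest in Ctr 1, at the low level given above, led by Col1a2 at 3.59 CPM. Of the single markers Col1a1, Col1a2 and Pdgfra were highest in Ctr 1, and Dcn, Col3a1 and Lum were not. The part of these markers in the spread was not tested. Leaving out Ctr 1 moved the fold change of 13 of the 49 members tested by over 1.5 times, and leaving out αGlu 1 that of 5. The mean log2 CPM over all 50 members was 2.94, 1.77 and 2.11 in Ctr 1, 2 and 3 and 0.85, 0.66 and 0.75 in αGlu 1, 2 and 3, a difference of group means of -1.52. The SD over libraries was 0.60 in Ctr and 0.10 in αGlu, so the difference is larger than the spread in either group. Without Ctr 1 it was -1.19, and the median fold change was -1.12 on the log2 scale. The count of members without overlap was then 40, with 37 among the 47 at 1 CPM or more, against 19.2% of genes. Leaving out a library cannot lower this count, so it is no check on Ctr 1. On the scale of log2 of the deposited TPM plus 1, which compresses low genes, the difference was -0.78.

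Levels between genes were compared per length, in the TPM values that the authors deposited, which divide reads by transcript length. In Ctr the median member stood at 3.56 TPM and in αGlu at 1.17 TPM. Smc4 was the highest member in Ctr with 30.9 ± 2.91 TPM (SD, n = 3), followed by Cks2 with 13.8 ± 3.73 TPM and Smc2 with 13.4 ± 1.88 TPM, and the last 2 did not differ beyond their spread. Mki67 ranked 6 of 50 in Ctr with 8.17 ± 6.004 TPM. The lowest were Cenpf at 0.458 ± 0.437 TPM and Cdc25c at 0.385 ± 0.377 TPM. A mean under 1 TPM was found for 5 members in Ctr and for 23 in αGlu. In 8 members no αGlu library had as many as 10 reads, so that the size of these differences is set by few reads.

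Among the 6 genes of chromosome structure, Mki67 and Top2a had log2 fold changes of opposite sign. Mki67 (chr7:135689784-135716361, minus strand, GRCm38) encodes the protein that coats mitotic chromosomes and is the common histological marker of cycling cells. It was at 49.2, 13.2 and 18.8 CPM in Ctr 1, 2 and 3 and at 11.9, 107.9 and 137.9 CPM in αGlu 1, 2 and 3. The library αGlu 1 was thus the lowest of all 6 and the other two the highest, so the groups overlapped. The log2 fold change was 1.67 with an SE of 0.92 and an adjusted p of 0.290 by the quasi-likelihood test, and an exact two-sided permutation test of the 6 log2 CPM values gave p = 0.4, where 3 libraries against 3 allow no less than 0.1. Without αGlu 1 the log2 fold change was 2.18 with an SE of 0.51 and an adjusted p of 0.0171, and by DESeq2 with all 6 libraries it was 1.66 with an adjusted p of 0.174.

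Top2a, the topoisomerase that untangles replicated chromosomes, was at 36.9, 13.8 and 17.7 CPM in Ctr, against 6.88, 5.54 and 6.60 CPM in αGlu. All 3 αGlu values lay close together and under every Ctr value, with a log2 fold change of -1.85, an SE of 0.39 and an adjusted p of 0.149. Relative to Top2a, Mki67 stood at 0.955 to 1.33 times its CPM in Ctr, at 1.73 times in αGlu 1, and at 19.5 and 20.9 times in αGlu 2 and 3. Mki67 made up 4.65% to 9.20% of the summed CPM of the 50 members in Ctr, 5.46% in αGlu 1, and 39.1% and 42.5% in αGlu 2 and 3. In TPM it ranked 4, 14 and 10 of 50 in Ctr 1, 2 and 3, 7 in αGlu 1 and 1 in αGlu 2 and 3, at 34.3 and 45.1 TPM. The summed CPM of the other 49 members was 485, 270.0 and 328 in Ctr and 207, 168 and 187 in αGlu, with no overlap.

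Genes beside Mki67 on chromosome 7 did not follow it. Ptpre, a receptor phosphatase on the opposite strand whose end lies next to the end of Mki67, was at 332, 370.1 and 291 CPM in Ctr, against 248, 176 and 135 CPM in αGlu. 5830432E09Rik was at 12.8 to 17.0 CPM in Ctr and 8.58 to 12.2 CPM in αGlu. Gm45240, annotated within Mki67 on the other strand, and Gm36431, upstream of it, had 0 reads in every library. The libraries were made with a stranded kit, but how strand was used in the counting is not given in the sources used here.

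Condensin genes moved less. Smc4, a core condensin subunit, was at 55.2, 48.2 and 56.9 CPM in Ctr, against 53.3, 44.6 and 56.9 CPM in αGlu; the groups overlapped and the log2 fold change was -0.051 with an SE of 0.12. Ncapd2, a condensin I subunit, was at 13.2, 6.48 and 7.80 CPM in Ctr, against 4.76, 6.36 and 7.30 CPM in αGlu, where the highest αGlu value lay above Ctr 2. Ncapg, another condensin I subunit, was at 5.32, 2.68 and 2.88 CPM in Ctr, against 1.03, 1.51 and 1.98 in αGlu without overlap, a log2 fold change of -1.25 with an SE of 0.38 and an adjusted p of 0.160. Smc2, the partner of Smc4, was lower without overlap at a log2 fold change of -0.40.

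The 8 genes of cyclin and Cdk control spanned the widest range. Ccna2, the cyclin of S and G2 phase, was at 10.4, 3.09 and 4.83 CPM in Ctr, against 0.746, 0.378 and 0.147 CPM in αGlu. Every αGlu library lay under the lowest Ctr value, and the log2 fold change was -3.91 with an SE of 0.71 and an adjusted p of 0.149. Ccnb2, a B-type cyclin, had a log2 fold change of -2.58 without overlap, and of -1.70 without Ctr 1. Ccnb1, the main partner of Cdk1 at mitotic entry, was instead at 8.31, 3.09 and 3.81 CPM in Ctr, against 1.20, 5.01 and 5.36 CPM in αGlu. As for Mki67, αGlu 1 was the lowest of the 6 libraries, while αGlu 2 and 3 lay above Ctr 2 and 3; the log2 fold change was -0.38 with an SE of 0.62, and 0.029 without αGlu 1.

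Cdk1, the mitotic kinase, was at 14.8, 7.40 and 9.33 CPM in Ctr, against 5.16, 7.05 and 8.58 CPM in αGlu, so that αGlu 3 lay above Ctr 2. Cks2, its small binding subunit, was at 3.82, 2.26 and 3.43 CPM in Ctr, against 2.41, 1.86 and 1.65 CPM in αGlu, with αGlu 1 above Ctr 2. Their log2 fold changes were -0.59 with an SE of 0.31 and -0.69 with an SE of 0.28. Cdca3, which promotes degradation of the inhibitory kinase Wee1, was at 13.3, 4.22 and 5.48 CPM in Ctr, against 2.18, 2.27 and 2.20 CPM in αGlu, with no overlap. Its log2 fold change was -1.79 with an SE of 0.46. Gtse1, which restrains p53 in G2, was at 4.09, 2.34 and 3.34 CPM in Ctr, against 2.07, 3.90 and 3.30 CPM in αGlu. Its groups overlapped and its log2 fold change was -0.066 with an SE of 0.32. Cdc25c, the phosphatase that activates Cdk1, was the member that did not pass the filter: it had 28, 12 and 2 reads in Ctr and 1, 2 and 2 in αGlu. The ratio of its total reads, scaled to library size, was 8.91 for Ctr over αGlu (95% exact interval 3.53 to 28.9, counting error only), and Ctr 3 lay close to αGlu.

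All 7 genes of the checkpoint and mitotic kinases were lower in αGlu without overlap, as were 15.6% of all genes with a mean CPM of at least 1. Pbk, a mitotic kinase, was at 1.95, 0.627 and 1.49 CPM in Ctr, against 0.172, 0.0630 and 0.110 CPM in αGlu, from 90 reads in all Ctr libraries together and 8 in αGlu. Its log2 fold change was -3.59 with an SE of 0.61 and an adjusted p of 0.149. Aurka, the kinase of centrosome maturation, was at 5.997, 3.64 and 4.45 CPM in Ctr, against 2.12, 1.76 and 1.94 CPM in αGlu, which gives a log2 fold change of -1.27 with an SE of 0.24. Bub1b, which encodes the checkpoint protein BubR1, was at 10.2, 5.98 and 5.94 CPM in Ctr, against 4.93, 4.50 and 3.37 CPM in αGlu, for a log2 fold change of -0.79 with an SE of 0.28. In each of these 3 genes the αGlu values lay together under Ctr. The other 4, Bub1, Mad2l1, Ttk and Plk1, had log2 fold changes from -3.17 in Plk1 to -0.63 in Mad2l1 with adjusted p from 0.149 to 0.176.

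The pair of genes for exit from mitosis acts on the APC/C. Ube2c, its ubiquitin-conjugating enzyme, was at 4.23, 0.961 and 1.30 CPM in Ctr, against 0.287, 0.0630 and 0.0734 CPM in αGlu, from 144 and 9 reads. It had the lowest log2 fold change of the 49 tested, -4.06, with an SE of 0.88 and an adjusted p of 0.154, but not without Ctr 1, where it was at -3.10 and Ccna2 at -3.26. Without αGlu 1 it was at -4.90. Cdc20, the activator of the complex, was at 4.77, 1.55 and 2.18 CPM in Ctr, against 1.43, 0.944 and 0.697 CPM in αGlu, where αGlu 1 came near Ctr 2. Its log2 fold change was -1.48 with an SE of 0.51.

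The chromosomal passenger complex, which corrects faulty attachments and later sits at the midzone, was split. Birc5, which encodes survivin, was at 6.22, 2.42 and 3.85 CPM in Ctr, against 0.516, 0.913 and 0.880 CPM in αGlu, which gives a log2 fold change of -2.41 with an SE of 0.43 and an adjusted p of 0.149. Its partner kinase gene Aurkb was at 7.18, 4.72 and 5.38 CPM in Ctr, against 2.01, 4.22 and 5.61 CPM in αGlu. There αGlu 1 alone was far under Ctr, αGlu 3 lay above Ctr 2 and 3, and the log2 fold change was -0.53 with an SE of 0.39. Cdca8, which encodes borealin, was at 8.54, 6.23 and 6.26 CPM in Ctr, against 3.56, 5.35 and 5.14 CPM in αGlu, with no overlap and a log2 fold change of -0.58 with an SE of 0.22. The difference between Birc5 and its partners was not tested.

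**Figure D2:**
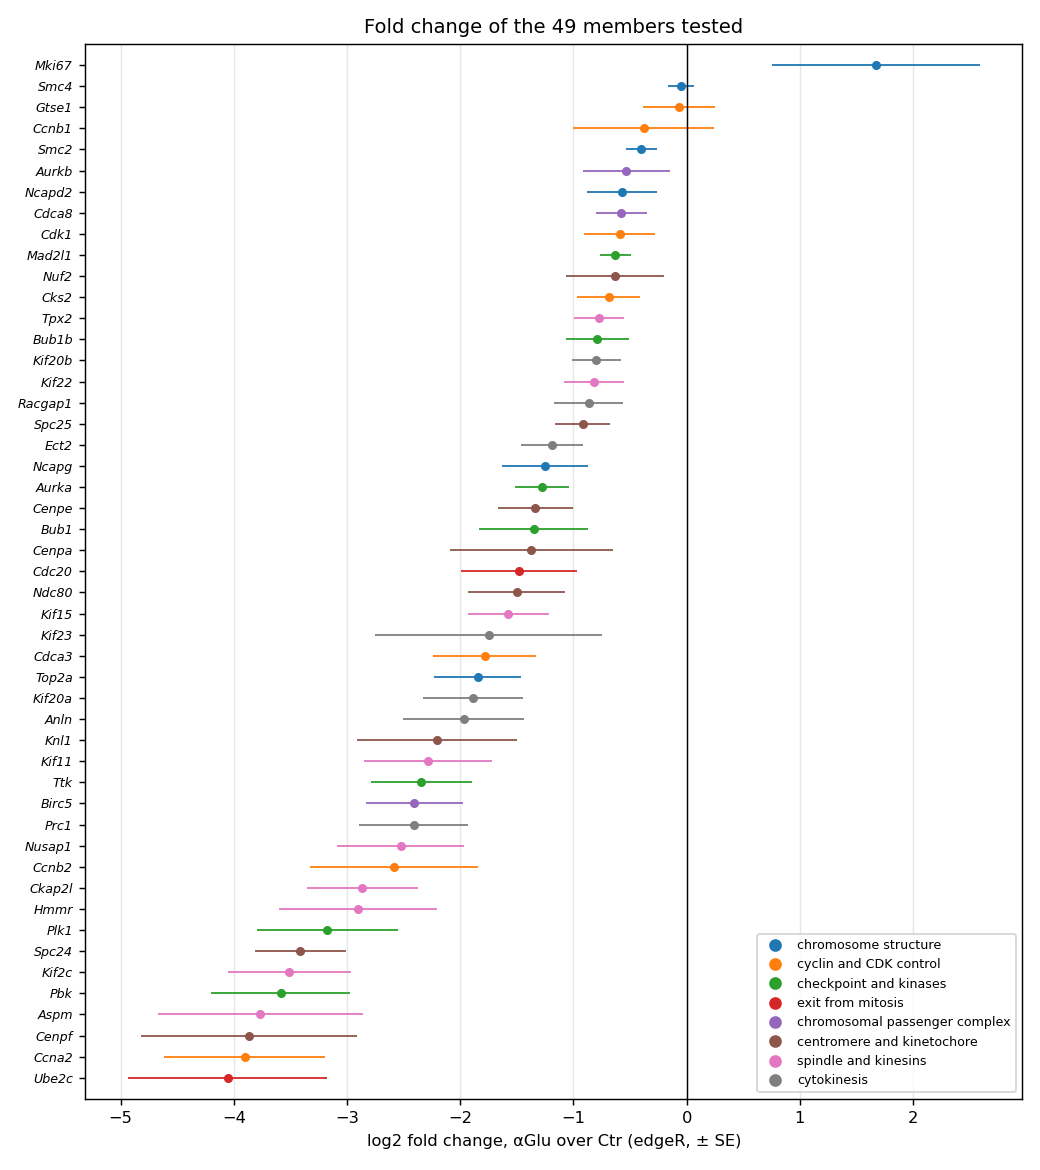
Log2 fold change (αGlu over Ctr, edgeR quasi-likelihood fit, bars ± SE) of the 49 members tested, coloured by role. The values run from -4.06 for Ube2c to 1.67 for Mki67, which alone lies to the right of 0; Smc4 and Gtse1 cross 0 when libraries are scaled by size alone.

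Among the 8 centromere and kinetochore genes, 6 were lower without overlap, against 15.6% of all genes with a mean CPM of at least 1. Spc24, a subunit of the Ndc80 complex that grips microtubules, had the smallest unadjusted p of all members. It was at 1.23, 0.752 and 1.07 CPM in Ctr, against 0.0574, 0.0944 and 0.110 CPM in αGlu, from 68 and 7 reads, with a log2 fold change of -3.41, an SE of 0.40 and an adjusted p of 0.149. Its direct partner Spc25 was at 4.36, 2.84 and 3.94 CPM in Ctr, against 1.61, 2.24 and 2.02 CPM in αGlu, for a log2 fold change of -0.92 with an SE of 0.24. Nuf2, another subunit of this complex, was at 5.18, 1.84 and 2.78 CPM in Ctr, against 1.55, 2.05 and 2.68 CPM in αGlu, and its groups overlapped. The subunits of 1 complex thus ranged from a log2 fold change of -3.41 to one of -0.63.

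Cenpf, a large protein of the outer kinetochore, was at 4.82, 0.878 and 1.25 CPM in Ctr, against 0.344, 0.0630 and 0.110 CPM in αGlu, which gives a log2 fold change of -3.86 with an SE of 0.95 and an adjusted p of 0.156. Ctr 1 held 4.82 of the CPM and the next Ctr library 1.25, and the log2 fold change was -2.72 without Ctr 1 and -4.69 without αGlu 1. Cenpa (chr5:30666777-30674830, plus strand, GRCm38), the histone H3 variant that marks centromeres, had another pattern. It was at 23.5, 16.1 and 19.6 CPM in Ctr, at 17.2 CPM in αGlu 1, and at 3.02 and 3.08 CPM in αGlu 2 and 3. The library αGlu 1 lay inside the range of Ctr, and the log2 fold change was -1.37 with an SE of 0.72 and an adjusted p of 0.275. Without αGlu 1 it was -2.70 with an SE of 0.19 and an adjusted p of 0.000193. The upstream neighbour Slc35f6 was at 221 to 246 CPM in Ctr, at 213 in αGlu 1 and at 122 and 123 in αGlu 2 and 3. Cenpe, Knl1 and Ndc80 had log2 fold changes from -2.21 to -1.34 without overlap.

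All 9 spindle genes were lower in αGlu without overlap, beside 15.6% of all genes with a mean CPM of at least 1. Kif2c, a microtubule-depolymerizing kinesin at the centromere, was at 4.04, 1.21 and 2.13 CPM in Ctr, against 0.229, 0.189 and 0.220 CPM in αGlu, with a log2 fold change of -3.51, an SE of 0.54 and an adjusted p of 0.149. Ckap2l, a spindle protein, was at 4.18, 1.51 and 2.37 CPM in Ctr, against 0.459, 0.252 and 0.404 CPM in αGlu, for a log2 fold change of -2.86 with an SE of 0.49. The αGlu libraries were alike in both. Tpx2, the activator of Aurora A, and Kif22, a chromosome-arm kinesin, had the highest mean TPM of the 9 and the log2 fold changes nearest to 0. Tpx2 was at 20.5, 16.3 and 14.01 CPM in Ctr, against 11.8, 10.4 and 7.52 CPM in αGlu, which gives a log2 fold change of -0.77 with an SE of 0.22. Kif22 was at 6.41, 4.10 and 3.90 CPM in Ctr, against 2.29, 3.27 and 2.57 CPM in αGlu, for a log2 fold change of -0.82 with an SE of 0.27. The other 5, Kif11, Kif15, Nusap1, Hmmr and Aspm, lay between -3.77 in Aspm and -1.58 in Kif15, each with an adjusted p of 0.156. Without Ctr 1 Aspm was at -2.61, and without αGlu 1 Kif11 was at -3.08.

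All 7 cytokinesis genes were lower without overlap, in 1 case by a narrow margin, against 15.6% of all genes with a mean CPM of at least 1. Prc1, which bundles microtubules of the midzone, was at 13.0, 4.05 and 6.03 CPM in Ctr, against 1.78, 1.20 and 1.39 CPM in αGlu, which gives a log2 fold change of -2.41 with an SE of 0.48 and an adjusted p of 0.149. Ect2, an exchange factor that acts at the cleavage furrow, was at 6.72, 3.72 and 4.32 CPM in Ctr, against 1.89, 2.20 and 2.35 CPM in αGlu, for a log2 fold change of -1.19 with an SE of 0.27. Racgap1, which recruits Ect2, was at 14.2, 6.31 and 9.28 CPM in Ctr, against 4.99, 5.32 and 5.98 CPM in αGlu, which gives a log2 fold change of -0.87 with an SE of 0.30. Its highest αGlu value lay just under Ctr 2. Kif20a, Kif20b and Anln had log2 fold changes from -1.97 to -0.80.

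Kif23 (chr9:61915905-61946774, minus strand, GRCm38) encodes the kinesin that forms the centralspindlin complex with Racgap1. It was at 19.8, 17.9 and 22.2 CPM in Ctr, at 15.8 CPM in αGlu 1, and at 1.17 and 1.39 CPM in αGlu 2 and 3. The library αGlu 1 lay a little under Ctr and 12.3 times above the mean of αGlu 2 and 3, and Ctr 1 was not the highest Ctr library. The log2 fold change was -1.75 with an SE of 1.003 and an adjusted p of 0.304, and without αGlu 1 it was -3.97 with an SE of 0.17 and an adjusted p of 2.99e-05.

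**Figure D3:**
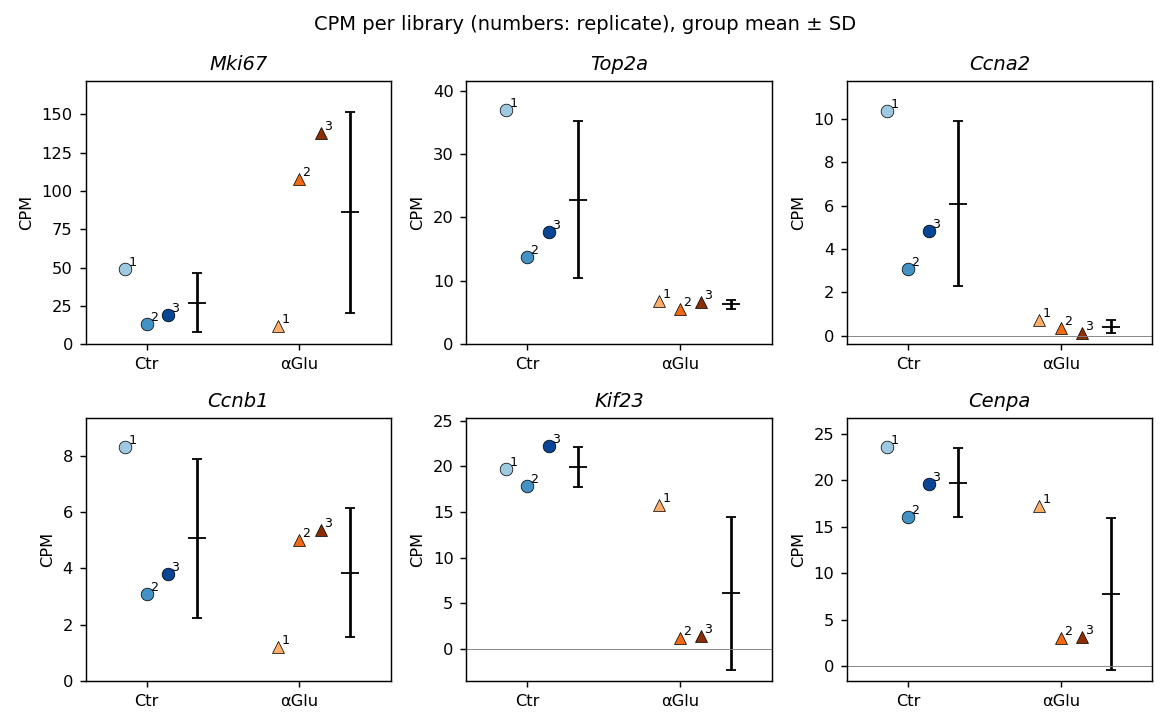
CPM per library (numbers beside the points give the replicate) with group mean ± SD for 6 members, chosen after their values were seen. Top2a and Ccna2 are low in all 3 αGlu libraries, Mki67 and Ccnb1 are lowest in αGlu 1, and Kif23 and Cenpa are low in αGlu 2 and 3 only.

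The members differed in how they varied within the αGlu group, for which 1 library against 2 allows no test. Over all genes tested αGlu 1 also stood apart, with an r of 0.929 to αGlu 2 and 3 and of 0.992 between these. The counts that follow were not made over all genes, so they show no trait particular to the members. The values of αGlu 2 and αGlu 3 were near each other, with a median absolute log2 ratio of 0.26. Both lay above αGlu 1 in 19 members and both below it in 26. The mean of αGlu 2 and 3 was more than 2 times αGlu 1 in 4 members: Mki67 at 10.3 times, Ccnb1 at 4.30 times, Bub1 at 2.69 times and Aurkb at 2.45 times. It was less than 0.5 times αGlu 1 in 9 members, of which Kif23 at 0.0811 times and Cenpa at 0.177 times had the highest TPM in Ctr. Against the Ctr mean, most members were low in αGlu 1 and in αGlu 2 and 3 alike. Exceptions included Mki67, Ccnb1 and Gtse1, which in log2 CPM lay under the Ctr mean in αGlu 1 and above it in the mean of αGlu 2 and 3. Kif23 and Cenpa were near the Ctr mean in αGlu 1 and far under it in αGlu 2 and 3. Aurkb was further under the Ctr mean in αGlu 1, at -1.46, than in αGlu 2 and 3, at -0.22. Nuf2, Ncapd2 and Cdk1 showed a smaller gap of the same kind. Smc4 stood near the Ctr mean in all.

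**Figure D4:**
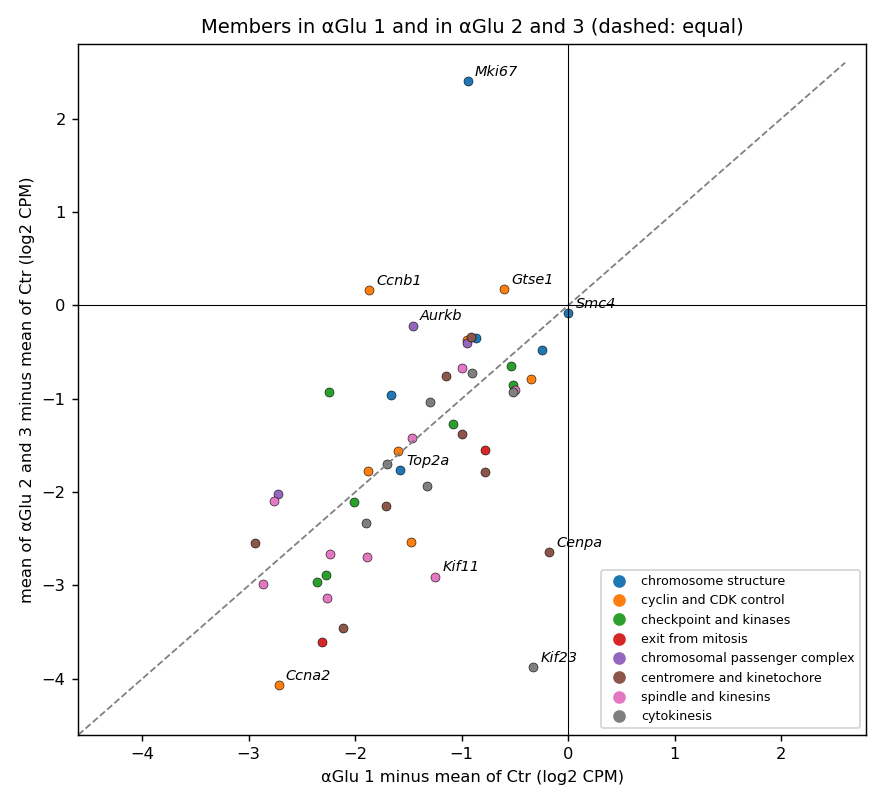
For each of the 50 members, log2 CPM of αGlu 1 minus the Ctr mean (horizontal) against the mean of αGlu 2 and 3 minus the same Ctr mean (vertical), coloured by role; the dashed line marks equal values. Because both axes subtract the same Ctr mean, points spread along the line; Mki67 lies at -0.94 and 2.40 and Kif23 at -0.33 and -3.88, far off it on opposite sides.

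Other genes of the same and neighbouring pathways, listed by function, had medians from -0.60 to 0.11 on the log2 scale. Of 76 other mitosis genes, 67 were tested, 56 were lower and 11 higher, with a median log2 fold change of -0.42. By the quasi-likelihood test 0 were called and 28 were lower at an unadjusted p under 0.05 (11.9% of all genes tested), and DESeq2 called 24 lower and 0 higher (3.93% and 4.23% of all genes). Among them Kif4, the chromokinesin, was at 4.95, 2.68 and 2.27 CPM in Ctr, against 0.631, 0.472 and 0.770 CPM in αGlu, and Tuba1c, an α-tubulin, at 251, 226 and 193 CPM in Ctr, against 138, 152 and 129 CPM in αGlu. Neither gene overlapped between groups, with log2 fold changes of -2.40 (SE 0.40) and -0.68 (SE 0.13).

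Of 40 genes of G1/S and DNA replication, all tested, 35 were lower and 5 higher, with a median of -0.60. DESeq2 called 10 of them lower, against 3.93% of all genes, and 0 higher. Uhrf1, which guides maintenance DNA methylation, was at 13.9, 6.39 and 10.4 CPM in Ctr, against 1.78, 2.14 and 1.98 CPM in αGlu, for a log2 fold change of -2.37 with an SE of 0.31. Pcna, the replication clamp, was at 505, 448 and 452 CPM in Ctr, against 327, 125 and 120.3 CPM in αGlu, where αGlu 1 stood between the Ctr libraries and the other αGlu libraries. Its log2 fold change was -1.30 with an SE of 0.42, and -1.935 without αGlu 1.

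Of 17 genes for regulators of the mitotic program (FoxM1, Myb proteins, MuvB, E2F4 and E2F5, pocket proteins and NF-Y), 11 were lower and 6 higher, with a median of -0.0097. DESeq2 called 2 of the 17 lower, against the same 3.93%, and 0 higher. Foxm1, the G2/M activator, was at 6.91, 3.09 and 4.04 CPM in Ctr, against 0.803, 1.45 and 1.36 CPM in αGlu, which gives a log2 fold change of -1.94 with an SE of 0.39 and an adjusted p of 0.149. Mybl2, which encodes B-Myb, was chosen after its values were seen. It was at 2.77, 1.25 and 1.90 CPM in Ctr, against 0.80, 0.69 and 0.51 CPM in αGlu, with no overlap. Its log2 fold change was -1.56 with an SE of 0.38. Nfya, which encodes the CCAAT-binding subunit of NF-Y, was at 183, 157 and 157 CPM in Ctr, at 158 in αGlu 1, and at 93.1 and 91.5 CPM in αGlu 2 and 3, so its groups overlapped. Its log2 fold change was -0.54 with an SE of 0.24, and -0.85 without αGlu 1.

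The 16 genes of APC/C subunits and regulators, 6 lower and 10 higher, had a median of 0.11, and the 16 genes of cohesin and its regulators, 9 lower and 7 higher, one of -0.050. DESeq2 called 0 of the first and 2 of the second lower, against 3.93% of all genes, and none higher. Anapc11, the RING subunit, had a log2 fold change of -0.49 with an SE of 0.11, and Anapc5 one of 0.12 with an SE of 0.13. Rad21, a core cohesin subunit that acts throughout the cell cycle, was at 101 to 106 CPM in Ctr and 98.1 to 99.7 CPM in αGlu. Esco2, the cohesin acetyltransferase of S phase, was at 1.41, 0.585 and 1.02 CPM in Ctr, against 0.229, 0.0944 and 0.0734 CPM in αGlu, for a log2 fold change of -2.98 with an SE of 0.57. Whether the 50 members differed from these lists was not tested.

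**Figure D5:**
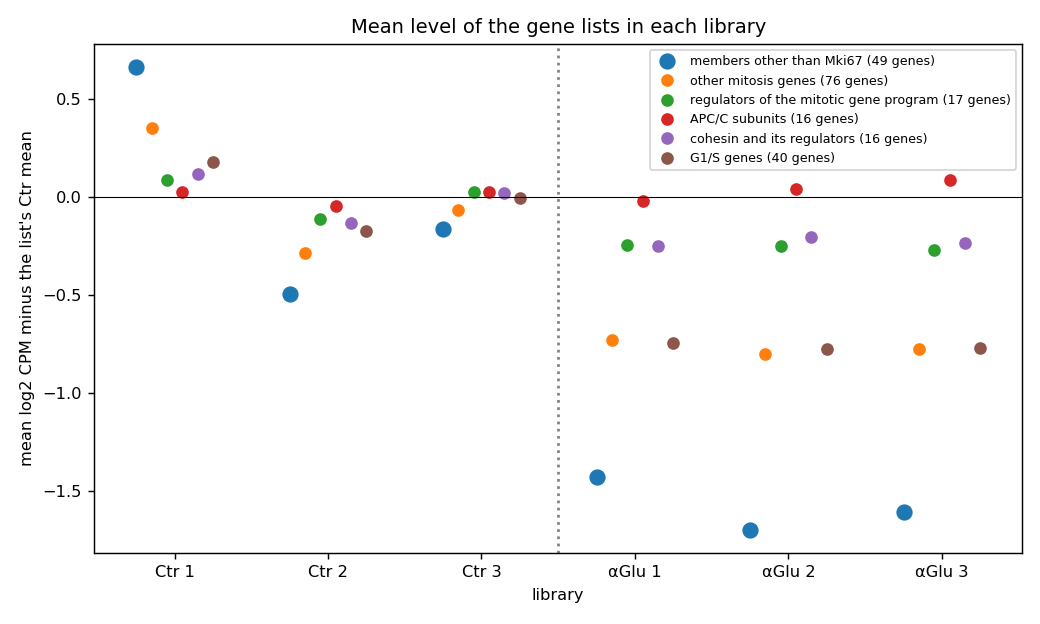
Mean log2 CPM of each gene list in each library, minus the mean of the list in Ctr. The 49 members other than Mki67 (0.66, -0.50 and -0.17 relative to their Ctr mean in Ctr 1, 2 and 3) lie lowest in the αGlu libraries, and the APC/C subunits stay near 0 in all 6.

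The promoters are shown for their CHR and CCAAT elements. The members were chosen as mitosis genes, whose promoters often hold these elements, so high shares here are no independent result. RefSeq promoter windows of 300 bases, 250 before to 50 after the annotated start (GRCm38.p6), were matched for 42 of the 50 members and gave 45 windows. The CHR core TTTGAA, searched on both strands, was found in 35 of the 45 windows (77.8%), against 17.9% of the 32851 windows of the table. Its variant TTTAAA, which reads the same on both strands, was in 12 windows (26.7%), against 13.2%. CCAAT, on either strand, was in 35 windows (77.8%), against 37.4%, and 24 windows (53.3%) held 2 or more, against 11.7%. Both TTTGAA and CCAAT were in 29 windows (64.4%), against 6.95%. Each motif was searched on its own, so matches of different motifs may overlap, and a match is no evidence of binding.

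The promoters of Mki67 and of Ckap2l, Aurka and Ttk follow from 250 bases before to 30 after the start. These 3 had the smallest unadjusted p among members with a matched window that held both elements. Members without a matched window could not be picked. They let the promoter of the member that was higher in αGlu 2 and 3 be read beside promoters of members that were lower in all. Capitals mark TTTGAA or its reverse complement TTCAAA, and CCAAT or its reverse complement ATTGG.
Mki67 (chr7:135716350-135716629, minus strand): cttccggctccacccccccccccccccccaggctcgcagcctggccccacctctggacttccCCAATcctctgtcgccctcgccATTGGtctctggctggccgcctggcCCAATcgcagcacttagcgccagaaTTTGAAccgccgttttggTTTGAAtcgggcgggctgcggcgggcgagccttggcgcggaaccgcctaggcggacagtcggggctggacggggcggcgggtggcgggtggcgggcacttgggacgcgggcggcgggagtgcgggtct
Ckap2l (chr2:129297183-129297462, minus strand): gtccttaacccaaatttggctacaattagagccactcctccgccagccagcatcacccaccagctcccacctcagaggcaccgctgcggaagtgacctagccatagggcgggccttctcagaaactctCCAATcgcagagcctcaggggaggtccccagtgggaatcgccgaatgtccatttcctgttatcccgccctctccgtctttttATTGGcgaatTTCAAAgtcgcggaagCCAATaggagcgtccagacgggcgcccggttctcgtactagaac
Aurka (chr2:172370541-172370820, minus strand): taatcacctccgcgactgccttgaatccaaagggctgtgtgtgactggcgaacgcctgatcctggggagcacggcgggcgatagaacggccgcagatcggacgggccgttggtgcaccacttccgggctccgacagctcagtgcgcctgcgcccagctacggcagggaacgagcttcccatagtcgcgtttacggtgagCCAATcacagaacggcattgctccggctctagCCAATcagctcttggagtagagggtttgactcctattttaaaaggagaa
Ttk (chr9:83834439-83834718, plus strand): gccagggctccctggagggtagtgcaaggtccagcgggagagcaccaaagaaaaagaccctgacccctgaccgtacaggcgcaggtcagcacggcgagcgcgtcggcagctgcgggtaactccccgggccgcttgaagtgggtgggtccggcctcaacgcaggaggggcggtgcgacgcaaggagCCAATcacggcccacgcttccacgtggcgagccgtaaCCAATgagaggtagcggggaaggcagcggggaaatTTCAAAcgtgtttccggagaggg

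The Mki67 promoter held 3 CCAAT boxes, which begin 188, 166 and 141 bases before the start, and TTTGAA elements that begin 116 and 98 bases before it. In Ckap2l the CCAAT boxes begin 122, 40 and 14 bases before the start and the TTCAAA 30 bases before it. In Ttk they begin 65 and 28 bases before it and the TTCAAA at base 8 after it. In Aurka the CCAAT boxes begin 51 and 19 bases before the start, and the TTTGAA of its window, at base 33, falls after the printed stretch. Ckap2l, Aurka and Ttk were chosen for holding both elements, so their presence there is no result. The Mki67 promoter held both as well, at other distances. The part of these elements in the values of Mki67 was not tested.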

How the data were processed

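The authors processed reads of stranded mRNA libraries in a portal of QIAGEN for RNA-seq; the submitters' processing notes name the build GRCm38, and the aligner and annotation release are not given in the sources used here. They deposited, per gene and library, whole-number counts of reads over exons without normalization, and TPM values scaled by the authors to exon length and to the same total in each library. Tests used the deposited counts; the deposited RPKM and CPM were not used. Low genes were removed by edgeR 4.0.16 (filterByExpr by group, with a minimum count of 10 and a total of at least 15), and 11933 were fitted in R 4.3.3 with trimmed mean of M-values (TMM) factors and a two-sided quasi-likelihood test with group as the only term, adjusted by Benjamini-Hochberg over all of them. SEs were derived from fold change and F. CPM are counts per TMM-scaled library size and log2 CPM have a prior count of 2. Alternatives included DESeq2 1.42.0 and limma-voom (limma 3.58.1).

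The members and lists were chosen with earlier results of these data known. Values in every library are given for Mki67 and, per role, for the 2 members of highest mean TPM and the 2 of smallest unadjusted p, and for every member that was higher, overlapped or was not tested; other members are given by range. Of each further list, the gene with the smallest unadjusted p and the gene of highest mean TPM are named, and Mybl2 was added after its values were seen. Gene positions are from GENCODE M21.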

Additional observations from a re-analysis of the deposited data

How the results depend on the processing

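The count of members called lower, 0 by the quasi-likelihood test, was 30 by DESeq2, 29 by the edgeR likelihood-ratio test and 29 at an adjusted p under 0.2, and ranged from 0 to 32 when single libraries were left out, with 32 only without αGlu 1. It was 0 under limma-voom, relative log expression (RLE), upper-quartile or library-size scaling, the other filters, an adjusted p under 0.05, no fold limit and the replicate block. Deviations from the group means correlated at 0.076, 0.065 and 0.15 between same-numbered libraries of the 2 groups. Between libraries of different number they correlated at -0.11 to 0.046. These low values do not settle whether equal numbers mark pairs, and no source says that they do. With the replicate block, Mki67 had a log2 fold change of 1.62. The mean difference over members, -1.52, is the same with this block by construction and is no check on pairing.

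The number of members without overlap was 38 to 40 under other scalings and in the deposited TPM. It was 40 to 45 with single libraries left out, which cannot lower this number. The mean difference in log2 CPM, -1.52, was -0.78 on the deposited TPM scale, -1.58 without Mki67 (an alternative chosen after seeing the data), and -1.77 to -1.19 with single libraries left out. Mki67 stayed positive throughout, at 1.16 to 2.44 with single libraries left out, and passed the test only without αGlu 1, at 2.18.

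The sign turned in 3 other members near 0. Smc4 was at 0.033 with library-size scaling and from -0.12 to 0.047 with single libraries left out, positive without αGlu 2. Gtse1 was at 0.025 with library-size scaling and from -0.27 to 0.14 with single libraries left out, positive without Ctr 1 or αGlu 1. Ccnb1 ran from -0.68 to 0.18, positive without Ctr 1 (0.18) or αGlu 1 (0.029). The cause was not tested. With 3 libraries a group, 8 members under 10 reads in each αGlu library, and αGlu 1 nearer to Ctr than to its group, the sizes of single folds are imprecise.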
